A study of Mus musculus with 10 samples.

Results

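Dendritic cells take up antigen in a tumor and present it to T cells, and 9 genes that mark their subsets were followed by name in 10 mouse tumors: Flt3, Xcr1, Clec9a, Batf3, Irf8, Zbtb46, Cd209a, Siglech and Fscn1. They were 9 of the 21959 genes of the table. They were chosen by name and not by a measured value, although earlier results of these data were known. By the study's methods, the tumors grew from 4T1 cells, a line of mouse triple-negative mammary carcinoma. The cells were injected under the abdominal skin of BALB/c mice that the methods describe as female and 5-6 weeks old. The 5 mice of the exercise group (E) ran voluntarily, with no limit on speed or distance, and the 5 mice of the non-exercise group (NE) were kept under normal husbandry. All tumors were taken at day 21 and sequenced whole, 1 library per tumor, so that each value mixes tumor cells with host cells. Fewer cells of a type and less RNA per cell cannot be told apart in such libraries.

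Conventional dendritic cells fall into a cDC1 class, which cross-presents antigen to CD8 T cells, and a cDC2 class, which mainly activates CD4 T cells. Plasmacytoid dendritic cells (pDC) produce type I interferon, and mature dendritic cells are those that have taken up antigen, become activated and migrate towards lymph nodes. Flt3 is the receptor for the growth factor FLT3 ligand, on which the development of all these subsets depends, and Zbtb46 is a transcription factor of conventional dendritic cells. Xcr1, a chemokine receptor, and Clec9a, a receptor for dead cells, are surface markers of cDC1. Batf3 and Irf8 are transcription factors that cDC1 require, Irf8 being also made by pDC, monocytes and B cells. Cd209a, a lectin also called DC-SIGN, marks cDC2 and monocyte-derived dendritic cells. Siglech is a sialic acid-binding surface lectin of pDC. Fscn1 encodes the actin-bundling protein fascin, which is high in mature dendritic cells and is also made by many carcinoma lines.

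The total count per tumor was 15045613 to 20646763 reads in E and 18706032 to 23092251 reads in NE. Non-exercise replicate 1 stood apart from the other libraries. It was lowest of the 10 tumors for all 12 macrophage and monocyte markers and for all 12 skeletal muscle markers examined, against 20.8% of the 13517 genes tested that were lowest in it. Non-exercise replicate 4 was highest for all 12 skeletal muscle markers. The 4 Y-linked genes Ddx3y, Eif2s3y, Kdm5d and Uty had reads in every tumor although the mice are described as female, and their summed level ran from 12.7 CPM (the count scaled to a common library total) in non-exercise replicate 1 to 60.1 CPM in non-exercise replicate 4. Keratins, which define epithelial cells, were low although the tumors are described as grown from a mammary carcinoma line. Each tumor had 0 to 27 reads of Krt8 and 2 to 48 reads of Krt18. Non-exercise replicate 5 was an exception, with 1140 reads of Krt14 and 609 of Krt5. Of the 8 epithelial markers, 6 did not pass the filter on low counts. The identity of the tumor cells was not tested.

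Promoters of 4 of the genes are shown because their levels span the widest fold range over the tumors (Xcr1, Cd209a and Siglech) or run opposite to the rest (Fscn1). Each is the stretch of 250 bases before the gene's start in RefSeq, build GRCm38.p6, read 5′ to 3′ on the gene's strand. Capitals mark matches to motifs, each searched on both strands. The first motif was the promoter element TATAAA. Another was CAGGTG, an E-box of the class bound by TCF4, the factor that pDC require, and the last was the cAMP response element TGACGTCA.
Xcr1, chr9:123862030-123862279, minus strand: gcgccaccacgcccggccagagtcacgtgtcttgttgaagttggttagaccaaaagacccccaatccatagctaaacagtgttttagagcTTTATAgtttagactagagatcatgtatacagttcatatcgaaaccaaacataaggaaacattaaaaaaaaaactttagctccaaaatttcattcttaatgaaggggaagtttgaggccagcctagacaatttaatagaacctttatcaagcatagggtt
Cd209a, chr8:3748985-3749234, minus strand: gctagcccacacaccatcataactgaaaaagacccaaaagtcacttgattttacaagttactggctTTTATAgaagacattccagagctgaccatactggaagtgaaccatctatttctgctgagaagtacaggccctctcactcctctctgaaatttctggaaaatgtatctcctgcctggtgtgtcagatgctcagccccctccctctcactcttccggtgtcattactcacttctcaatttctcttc
Siglech, chr7:55767934-55768183, plus strand: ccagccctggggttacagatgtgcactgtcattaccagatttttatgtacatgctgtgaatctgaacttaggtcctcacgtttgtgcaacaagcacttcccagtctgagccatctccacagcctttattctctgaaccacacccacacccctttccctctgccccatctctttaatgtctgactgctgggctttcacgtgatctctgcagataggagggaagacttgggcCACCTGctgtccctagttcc
Fscn1, chr5:142960105-142960354, plus strand: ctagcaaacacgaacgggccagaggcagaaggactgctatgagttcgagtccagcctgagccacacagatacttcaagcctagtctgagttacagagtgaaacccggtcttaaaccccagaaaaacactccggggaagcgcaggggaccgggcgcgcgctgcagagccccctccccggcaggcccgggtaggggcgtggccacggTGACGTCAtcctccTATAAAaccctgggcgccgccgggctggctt

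The Siglech promoter held the E-box, 20 bases before the start, and that of Fscn1 held the cAMP response element 45 bases and TATAAA 31 bases before it. The letters TATAAA lay 160 bases before the start of Xcr1 and 184 bases before that of Cd209a. Of the 32851 promoters of this length, 17.2% held CAGGTG, 1.55% held TGACGTCA and 12.4% held TATAAA. Among the 9 genes, CAGGTG was found in Irf8, Zbtb46 and Siglech and TATAAA in Xcr1, Clec9a, Irf8, Cd209a and Fscn1. A gene was counted if any of its promoters matched, whereas the shares are of single promoters. For Irf8, TATAAA was in the promoter at chr8:120736108-120736357 and CAGGTG in that at chr8:120738389-120738638. The AP-1 site TGANTCA, the kind of site that BATF3 shares with JUN, was found in Zbtb46 alone, against 6.75% of all promoters. The Zbtb46 stretch, chr2:181424389-181424638, lies inside the gene's span in the reference annotation of GRCm38 (181387762 to 181459426, minus strand). Its matches are therefore not next to the outermost annotated start. The interferon-stimulated response element (2.98% of promoters) and the ETS-IRF element (2.30%), both of a kind bound by IRF8, were found in none of the 9. These are matches of letters in a short window. GC content of the 4 printed promoters was 38.8% for Xcr1, 44.8% for Cd209a, 50.8% for Siglech and 62.4% for Fscn1, with a median of 52.4% over all promoters.

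In the deposited table, whose genome build is not named and whose positions are not those of GRCm38, Xcr1 lies on the minus strand of chromosome 9 (123681380 to 123691094) and Clec9a on the plus strand of chromosome 6 (129385825 to 129401726). Batf3 lies on the plus strand of chromosome 1 (190830044 to 190841142) and Irf8 on the plus strand of chromosome 8 (121463097 to 121483433). Flt3 lies on the minus strand of chromosome 5 (147267551 to 147337299) and Zbtb46 on the minus strand of chromosome 2 (181029555 to 181101219). Cd209a lies on the minus strand of chromosome 8 (3793397 to 3798984), Siglech on the plus strand of chromosome 7 (55417926 to 55428673) and Fscn1 on the plus strand of chromosome 5 (142946098 to 142958940).

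Levels are given as FPKM, which scales a read count by the length of the gene and the depth of its library and so lets genes be compared. The general receptor and the conventional lineage factor were expressed at low levels. Flt3 had FPKM of 0.667, 1.22, 0.888, 0.925 and 1.63 in exercise replicates 1 to 5 and 0.309, 0.788, 1.35, 1.23 and 0.78 in non-exercise replicates 1 to 5. These rested on 44 to 190 reads, with the highest value in exercise replicate 5 and the lowest in non-exercise replicate 1. Zbtb46 had FPKM of 1.13, 1.36, 1.02, 1.01 and 1.25 in exercise replicates 1 to 5 and 0.977, 1.12, 1.45, 1.55 and 1.17 in non-exercise replicates 1 to 5, from 159 to 303 reads. Its values lay within 1.59-fold of each other. For both genes the 2 groups overlapped.

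The cDC1 surface markers differed in how evenly the tumors held them. Xcr1 had FPKM of 0.228, 0.289, 0.36, 0.218 and 0.478 in exercise replicates 1 to 5 and 0.0292, 0.54, 0.781, 0.352 and 0.294 in non-exercise replicates 1 to 5. The counts behind these values were 21, 24, 33, 18 and 32 in exercise replicates 1 to 5 and 3, 45, 79, 36 and 28 in non-exercise replicates 1 to 5. Non-exercise replicate 3 exceeded non-exercise replicate 1 by 26.8-fold, with a 95% interval of 8.83 to 133 that covers counting error only. Clec9a had FPKM of 1.15, 1.61, 1.47, 1.49 and 1.37 in exercise replicates 1 to 5 and 0.947, 2.31, 2.34, 1.5 and 1.77 in non-exercise replicates 1 to 5, from 68 to 175 reads. Its 2 highest tumors were non-exercise replicates 3 and 2, and 4 of the 5 non-exercise tumors were above the exercise median of 1.47. In the reference annotation, 184 exonic bases of Clec9a overlap its neighbor Clec1b on the same strand. Of its stretches of 50 bases, 4.02% occur in that gene, so that a part of its reads is of uncertain origin. For Xcr1, 1.63% of such stretches occur among 429 other genes, and for Siglech 0.389% among 195. The part of such reads in their low counts was not tested.

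The factors of the cDC1 lineage ranked differently in level. Batf3 had FPKM of 1.7, 1.38, 1.43, 0.945 and 2.08 in exercise replicates 1 to 5 and 0.542, 1.57, 1.6, 2.4 and 1.84 in non-exercise replicates 1 to 5, from 20 to 88 reads. Irf8 had FPKM of 17.5, 11.5, 10.7, 11.6 and 14.3 in exercise replicates 1 to 5 and 7.77, 12.5, 16.4, 15.3 and 11.5 in non-exercise replicates 1 to 5, from 1266 to 2631 reads. Irf8 was highest in exercise replicate 1 and Batf3 in non-exercise replicate 4, and both were lowest in non-exercise replicate 1.

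The cDC2 and pDC markers varied most. Cd209a had FPKM of 2.02, 3.35, 1.47, 2.38 and 5.96 in exercise replicates 1 to 5 and 0.164, 2.06, 2.7, 6.74 and 2.24 in non-exercise replicates 1 to 5. Its counts were 66, 99, 48, 70 and 142 in exercise replicates 1 to 5 and 6, 61, 97, 245 and 76 in non-exercise replicates 1 to 5. Exercise replicate 5 and non-exercise replicate 4 stood above the rest, 1 from each group. Siglech had FPKM of 0.143, 0.444, 0.258, 0.733 and 0.609 in exercise replicates 1 to 5 and 0.0128, 0.395, 1.7, 1.12 and 0.359 in non-exercise replicates 1 to 5. Counts of Siglech were 10, 28, 18, 46 and 31 in exercise replicates 1 to 5 and 1, 25, 131, 87 and 26 in non-exercise replicates 1 to 5. A single read in non-exercise replicate 1 corresponds to 0.0433 CPM, with a 95% Wilson interval of 0.00764 to 0.245 CPM, and the 131 reads of non-exercise replicate 3 lay 133-fold higher (95% counting interval 23.5 to 5298).

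The mature dendritic cell gene Fscn1 had the highest level and the opposite order of tumors at the extremes. Fscn1 had FPKM of 76.7, 76.9, 75.3, 72.5 and 79.9 in exercise replicates 1 to 5 and 92.9, 76.1, 69.9, 57 and 68.8 in non-exercise replicates 1 to 5, from 3620 to 6459 reads. The 5 exercise tumors lay between 72.5 and 79.9, inside the range of the non-exercise tumors. Non-exercise replicate 1, lowest of 10 for each of the other 8 genes, was highest for Fscn1, and non-exercise replicate 4 was lowest.

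**Figure D1:**
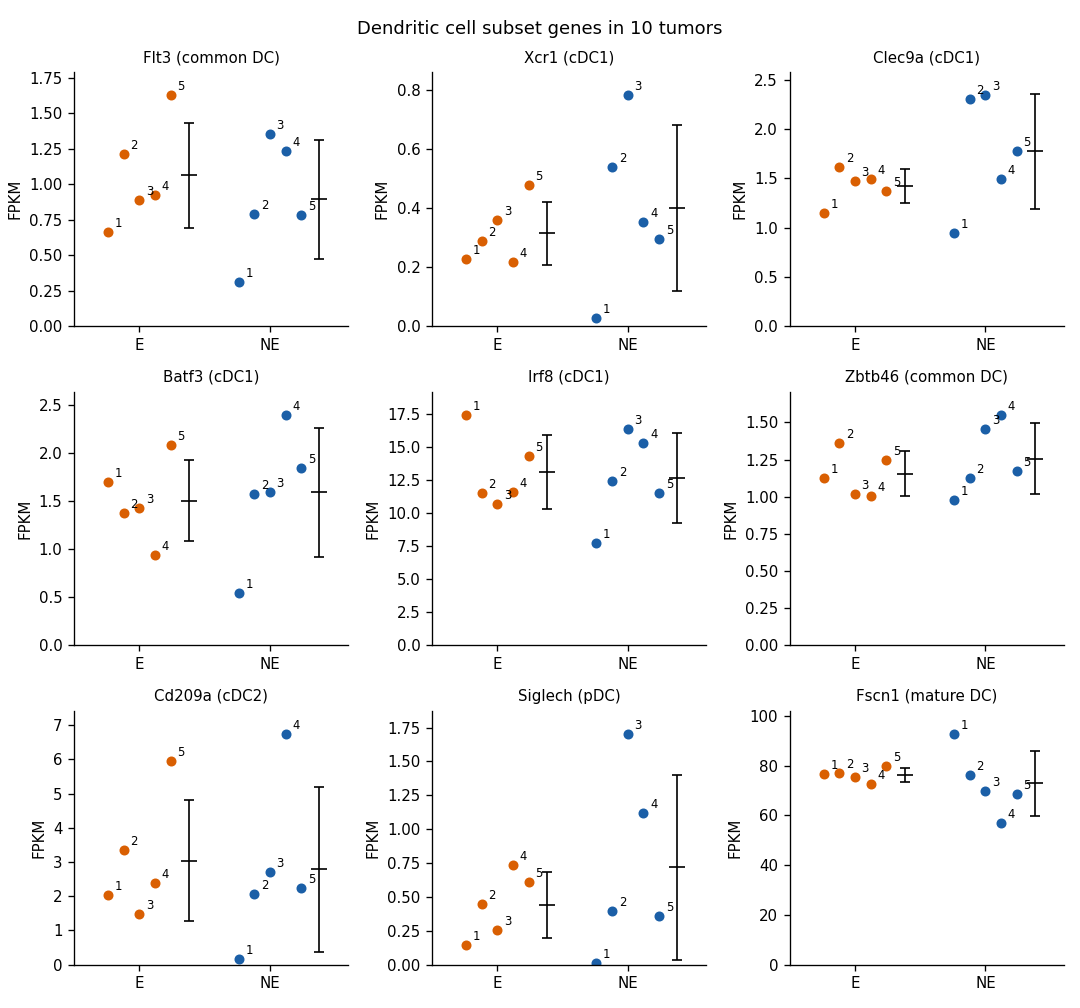
FPKM (vertical axes, linear from 0) of the 9 genes in the 5 tumors of the exercise group (E, orange) and the 5 of the non-exercise group (NE, blue), each point 1 tumor with its replicate number, and black bars the mean ± SD. Non-exercise replicate 1 is the lowest point in 8 panels and the highest for Fscn1, and the groups overlap in all 9.

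In mean FPKM over the 10 tumors the order was Fscn1 (74.6 ± 9.09), Irf8 (12.9 ± 2.94), Cd209a (2.91 ± 2.0), Clec9a (1.6 ± 0.447), Batf3 (1.55 ± 0.532), Zbtb46 (1.2 ± 0.196), Flt3 (0.978 ± 0.382), Siglech (0.578 ± 0.505) and Xcr1 (0.357 ± 0.205), each with its SD (n = 10). Only Fscn1 and Irf8 were set apart from all others. Fscn1 exceeded Irf8 by 5.78-fold and Irf8 exceeded Cd209a by 4.44-fold, in 10 of 10 tumors and with no overlap of the ranges. From Cd209a down, neighbors overlapped and kept the order of their means in 6 to 9 of the 10 tumors.

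No gene of the set passed the test between E and NE. By edgeR, 0 of the 9 genes, and 0 of the 13517 genes tested (0%), passed a fold change of 2 with a false discovery rate (FDR) of 0.05, as with DESeq2 and with limma-trend. At an unadjusted p of 0.05, without regard to fold, the count was 0 of 9 against 657 genes, or 4.86%, overall. The groups overlapped for all 9 genes, while 98 of all genes tested (0.725%) did not overlap. The median log2 fold change of the 9 genes was -0.13, beside -0.014 over all genes, with 4 positive and 5 negative values.

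Differences are given on the log2 scale (E minus NE, edgeR, standard error in parentheses). The receptor Flt3 averaged 1.06 ± 0.369 FPKM in E and 0.893 ± 0.417 in NE (SD over 5 tumors each), a log2 fold change of 0.21 (0.376) with a 95% interval of -0.63 to 1.04. Zbtb46 averaged 1.15 ± 0.152 in E and 1.26 ± 0.239 in NE, a log2 fold change of -0.16 (0.157). For Clec9a the means were 1.42 ± 0.174 in E and 1.77 ± 0.584 in NE, and the log2 fold change of -0.35 (0.238) had the smallest p of the 9, 0.168 unadjusted and 0.897 after Benjamini-Hochberg adjustment in edgeR. Without non-exercise replicate 1 the log2 fold change of Clec9a was -0.50. Its p in edgeR was then 0.0128 unadjusted and 0.473 adjusted. Leaving out that tumor also raised the number of all genes with an unadjusted p of at most 0.05 from 657 to 1350. Clec9a was the only one of the 9 genes among these 1350. Xcr1 averaged 0.315 ± 0.107 in E and 0.399 ± 0.281 in NE, a log2 fold change of -0.38 (0.593) with an interval of -1.70 to 0.93.

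None of the remaining genes had a smaller p than Clec9a. Batf3 averaged 1.51 ± 0.420 FPKM in E and 1.59 ± 0.675 in NE, with a log2 fold change of -0.13 (0.361). Irf8 averaged 13.1 ± 2.78 in E and 12.7 ± 3.41 in NE, with a log2 fold change of 0.0099 (0.207). Cd209a averaged 3.04 ± 1.77 in E and 2.78 ± 2.42 in NE, with a log2 fold change of 0.060 (0.696). Siglech had the largest estimate, a log2 fold change of -0.77 (0.820), between 0.437 ± 0.243 in E and 0.718 ± 0.683 in NE, and its interval ran from -2.59 to 1.05. Its estimate was -0.18 without non-exercise replicate 3 and -1.08 without non-exercise replicate 1. Fscn1 had the tightest, 0.037 (0.0962), between 76.3 ± 2.69 in E and 72.9 ± 13.1 in NE, with an interval of -0.18 to 0.25. Exact two-sided permutation tests of log2(FPKM + 1), whose smallest possible p is 0.00794, gave p from 0.270 for Clec9a to 0.944 for Batf3. The intervals show what these tumors could resolve: a change of 2-fold in either direction lay inside the interval for Cd209a and Siglech, as did a 2-fold rise for Flt3 and a 2-fold fall for Xcr1, and neither did for the other 5 genes.

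**Figure D2:**
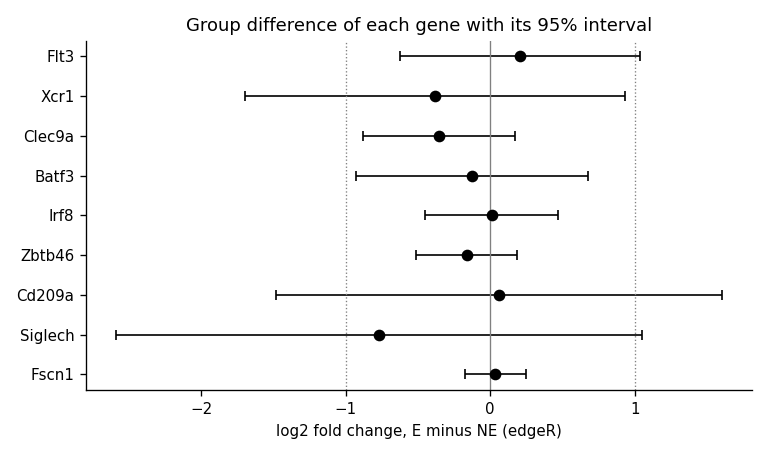
Log2 fold change of each gene (E minus NE, edgeR, horizontal axis) with its 95% interval, and dotted lines at a fold change of 2. All 9 intervals cover 0, from the narrow interval of Fscn1 (-0.18 to 0.25) to that of Siglech (-2.59 to 1.05).

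The spread differed between the groups and between the genes. The SD of log2(CPM + 1) was larger in NE than in E for 9 of 9 genes, as it was for 60.7% of all genes tested. The ratio of the 2 SDs ran from 1.59 for Irf8 to 4.74 for Fscn1. Over all 10 tumors, the SD of Cd209a (0.898) exceeded that of 96.9% of genes and the SD of Siglech (0.796) that of 96.1%. Flt3 and Xcr1 exceeded 92.1% and 91.7%, whereas Fscn1 (0.152) was below the median SD of all genes, 0.179.

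The highest tumor was not shared by all cDC1 genes. Xcr1 and Clec9a peaked in the same tumor, while Batf3 and Irf8 each peaked in another, so that these genes peaked in 3 different tumors. Non-exercise replicate 1 was lowest for 8 of the 9 genes, against the background of 20.8%. Non-exercise replicate 3 was highest for Xcr1, Clec9a and Siglech (7.91% of all genes were highest there). Non-exercise replicate 4 was highest for Batf3, Zbtb46 and Cd209a (19.7% of all genes). The 15 other cDC1 genes examined were lowest in non-exercise replicate 1 for 10, the 13 tested cDC2 genes for 10, the 13 tested pDC genes for 9 and the 17 tested mature dendritic cell genes for 11. Macrophage markers summed to 1278 CPM in non-exercise replicate 1 and to 2654 to 4575 CPM in the other 9 tumors. The part of these other cells in the low values of non-exercise replicate 1 was not tested.

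**Figure D3:**
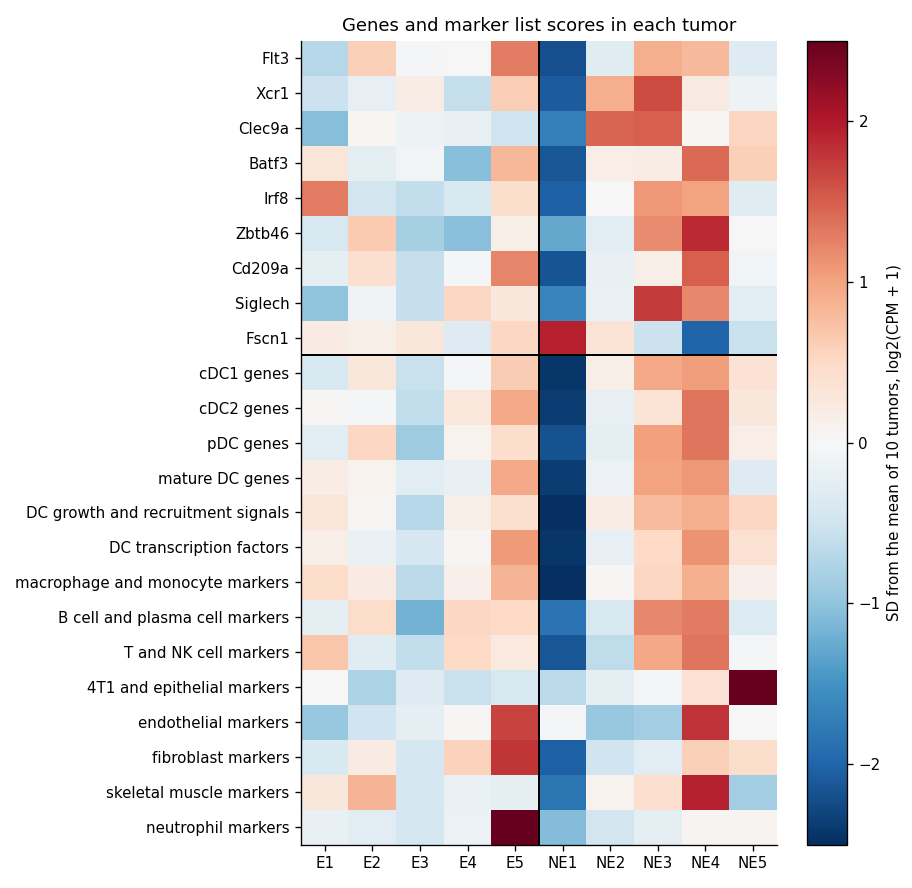
Each row is 1 of the 9 genes (above the line) or the mean of a marker list (below), each column 1 tumor, and color the distance in SD from the row's mean over the 10 tumors of log2(CPM + 1). Non-exercise replicate 1 is the lowest column for 8 genes and for all lists of immune cells, while Fscn1 is highest there and lowest in non-exercise replicate 4.

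Across the 10 tumors the genes other than Fscn1 varied together. All 28 pairs among those 8 genes correlated positively, with Pearson r of log2(CPM + 1) from 0.383 to 0.906 and a median of 0.696. For each of these genes, the 95th percentile of its r with all genes tested lay between 0.690 (Siglech) and 0.847 (Cd209a). All 8 pairs with Fscn1 were negative, with a median r of -0.701. The 5th percentile of the r of Fscn1 with all genes tested was -0.761. Within NE alone its r ran from -0.981 (Cd209a) to -0.494 (Clec9a). Within E alone it was 0.957 for Batf3, 0.810 for Xcr1, 0.509 for Zbtb46 and 0.431 for Flt3. There it was 0.417 for Cd209a, 0.353 for Irf8, -0.283 for Clec9a and -0.349 for Siglech. The 28 pairs without Fscn1 ran from -0.969 to 0.874 within E and from 0.469 to 0.997 within NE. With permutation p adjusted by Benjamini-Hochberg over the 36 pairs, 12 pairs had an adjusted p of at most 0.05 by Pearson's r, of which 3 also by Spearman's rho. That count was unstable, at 0 without non-exercise replicate 1 or 2, 1 without exercise replicate 3 or non-exercise replicate 3 or 4, 4 without exercise replicate 2, 5 without non-exercise replicate 5 and 22 without exercise replicate 1. The sizes of the correlations rested mainly on non-exercise replicate 1. Without it, 25 of the 28 pairs were positive with a median r of 0.465 and the pairs with Fscn1 had a median of -0.403, whereas leaving out any other single tumor kept the median of the 28 pairs between 0.680 and 0.758. Without non-exercise replicates 1 and 4 the median was 0.402 for the 28 pairs and -0.033 for those with Fscn1, 5 of 8 being negative.

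The closest pair joined the growth factor receptor to Cd209a, a marker of monocyte-derived dendritic cells as well as cDC2. Flt3 and Cd209a had r = 0.906 (permutation p = 0.00072, adjusted 0.0259) and rho = 0.855 (permutation p = 0.00279, adjusted 0.0404), and r = 0.674 without the 2 tumors farthest from the median of Flt3 (0.807 without non-exercise replicates 1 and 4). Flt3 and Siglech had r = 0.816 (adjusted permutation p = 0.0381) and rho = 0.867 (adjusted 0.0404), and r = 0.845 without the 2 farthest (0.676 without non-exercise replicates 1 and 4). Zbtb46 and Cd209a had r = 0.760 (adjusted permutation p = 0.0463) and rho = 0.830 (adjusted 0.0404), and r = 0.746 without the 2 farthest, non-exercise replicates 3 and 4 (0.478 without non-exercise replicates 1 and 4). These 3 pairs passed by both measures over the 10 tumors. Among the 13516 other genes tested, Cd209a ranked 38 and Siglech 397 by their r with Flt3. In reverse, Flt3 ranked 284 for Cd209a and 105 for Siglech. Cd209a ranked 640 for Zbtb46, and Zbtb46 ranked 1227 for Cd209a.

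The 2 cDC1 surface markers also followed each other. Xcr1 and Clec9a had r = 0.844 (permutation p = 0.00262, adjusted 0.0381), rho = 0.697 (adjusted permutation p = 0.135) and r = 0.576 without non-exercise replicates 1 and 3. Among the 13516 other genes tested, Clec9a ranked 91 by its r with Xcr1. The lineage factors Batf3 and Irf8 had r = 0.793 (adjusted permutation p = 0.0463) and rho = 0.733 (adjusted 0.135). Irf8 ranked 549 by its r with Batf3, and Batf3 ranked 543 for Irf8. Clec9a and Cd209a had the lowest r of the 28, 0.383 (adjusted permutation p = 0.272). Siglech and Fscn1 had r = -0.762 (adjusted permutation p = 0.0463).

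**Figure D4:**
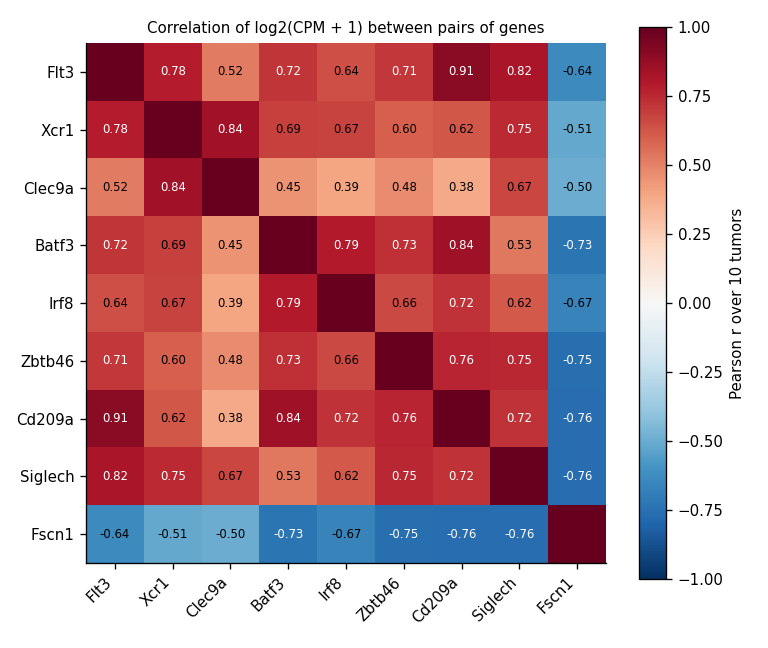
Pearson r of log2(CPM + 1) over the 10 tumors for each pair of the 9 genes, red for positive and blue for negative values. The 28 pairs without Fscn1 are all positive (0.383 to 0.906) and the 8 pairs with Fscn1 all negative.

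Ratios within a tumor compare subset genes independently of library size. Xcr1 marks cDC1, while Cd209a marks monocyte-derived dendritic cells as well as cDC2. Their ratio is therefore not read as cDC1 to cDC2 alone. The log2 ratio of Xcr1 to Cd209a averaged -3.14 ± 0.651 in the exercise group and -2.65 ± 0.993 in the other (SD, 5 tumors each). Its p was 0.365 by the exact permutation test and 0.802 after adjustment over 3 ratios. It ran from -4.24 in non-exercise replicate 4 to -1.79 in non-exercise replicate 3. The group difference of -0.49 became -0.89 without the former (exact permutation test, p = 0.0714), -0.77 without exercise replicate 3, -0.31 without non-exercise replicate 2 and -0.27 without non-exercise replicate 3. The log2 ratio of Siglech to Flt3, pDC to all subsets, was -1.41 ± 0.679 in E and -1.18 ± 1.70 in NE (exact permutation test, p = 0.802). Fscn1 did not follow the mature dendritic cell list, whose mean log2(CPM + 1) was lowest, 3.44, in non-exercise replicate 1 and highest, 4.31, in non-exercise replicate 4. The log2 ratio of Fscn1 to Flt3, which is therefore not read as a share of mature cells, was 6.22 ± 0.459 in E and 6.49 ± 1.07 in NE (exact permutation test, p = 0.706). It reached 8.22 in non-exercise replicate 1 and was lowest, 5.53, in non-exercise replicate 4. None of the 3 ratios passed its test, and the tumors of each group spread more widely than the group means differed.

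The genes whose pattern over the 10 tumors was most like that of a subset gene were as follows, all by Pearson r of log2(CPM + 1) with no test. Nearest to Flt3 was Ccr7 (r = 0.970), the chemokine receptor by which mature dendritic cells and naive T cells home to lymph nodes. It remained the nearest without non-exercise replicate 1 (r = 0.928). Ccr7 had 76 reads in that tumor and 141 to 316 in the others. Mag (0.955), a myelin glycoprotein, and the Y-linked demethylase Kdm5d (0.947) followed, and stood at ranks 7 and 13 without non-exercise replicate 1.

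Nearest to Xcr1 were Bcl2a1a (0.987), an anti-apoptotic gene with near-identical copies that may share its reads, Abcg3 (0.965), a transporter, and Itga8 (0.936), an integrin subunit. Bcl2a1a was again the nearest without non-exercise replicate 1 (0.980), where Abcg3 stood at rank 3 and Itga8 at rank 13. Nearest to Cd209a were Cbfa2t3 (0.981), a transcriptional corepressor active in dendritic cell development, Hs6st2 (0.979), a heparan sulfate sulfotransferase, and Colec12 (0.975), a scavenger receptor. Without non-exercise replicate 1 these stood at ranks 8, 19 and 18.

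Nearest to Siglech was Ccr9 (0.965), a chemokine receptor carried by pDC, with 0 to 72 reads per tumor. Cd226 (0.954), an activating receptor of T and NK cells, and the lymphocyte GTPase gene Gimap8 (0.939) followed. Without non-exercise replicate 1, Ccr9 was at rank 3 of all genes for Siglech (0.953), Cd226 at rank 4 and Gimap8 at rank 2. Nearest to Fscn1 were Trp53 (0.967), which encodes p53, Edc4 (0.961), a factor of mRNA decapping, and Ptov1 (0.956), at ranks 8, 10 and 46 without non-exercise replicate 1. The top 3 of Fscn1 thus held no other gene of the mature dendritic cell list, and those of Flt3 held 1, Ccr7.

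Levels of 7 of the 9 genes also moved with markers of other cell types, in 16 of 72 relations computed after the data were seen, at an adjusted permutation p of at most 0.05 for Pearson's r. No relation of Xcr1 or Clec9a reached it, and none of the 72 reached it by Spearman's rho. Here the 2 farthest tumors were set by the marker list and not by the gene. They were exercise replicate 3 and non-exercise replicate 1 for the macrophage and B cell lists. For the T and NK cell and skeletal muscle lists they were non-exercise replicates 1 and 4. For the fibroblast list they were exercise replicate 5 and non-exercise replicate 1. Cd209a correlated with the mean of the 12 macrophage and monocyte markers at r = 0.920 (permutation p = 0.00017, adjusted over the 72 relations 0.0122), rho = 0.842 (adjusted permutation p = 0.0677) and r = 0.835 without the 2 farthest tumors. Siglech correlated with B cell and plasma cell markers at r = 0.905 (adjusted permutation p = 0.0164), rho = 0.903 (adjusted 0.0576) and r = 0.886 without the 2 farthest. Irf8 correlated with T and NK cell markers at r = 0.902 (adjusted permutation p = 0.0164), rho = 0.782 (adjusted 0.0964) and r = 0.750 without the 2 farthest. Fscn1 was negative with T and NK cell markers, r = -0.852 (adjusted permutation p = 0.0267), rho = -0.709 (adjusted 0.134) and r = -0.466 without the 2 farthest. Of the 16, 3 were with cells other than immune cells. Cd209a correlated with fibroblast markers at r = 0.881 (adjusted permutation p = 0.0267) and r = 0.624 without the 2 farthest. Flt3 correlated with fibroblast markers at r = 0.828 (adjusted permutation p = 0.0327) and r = 0.321 without the 2 farthest. Zbtb46 correlated with skeletal muscle markers at r = 0.813 (adjusted permutation p = 0.0292) and r = 0.507 without the 2 farthest. All tumors enter each relation and non-exercise replicate 1 was the lowest tumor of the macrophage, B cell and T cell lists by their mean. B cell and plasma cell markers summed to 11.1 to 53.4 CPM in E and 8.32 to 114.4 CPM in NE, with 4 of the 8 under the filter on low counts. T and NK cell markers summed to 135.6 to 229.0 CPM in E and 164.9 to 208.0 CPM in NE. The part of these cells in the levels of the 9 genes was not tested.

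Other genes of each subset were counted from lists in the same edgeR fit. None was called. Their levels are those of whole tumors, and the part of dendritic cells in them was not tested. Of the cDC1 list, 15 of 15 genes were tested and 0 had an unadjusted p of 0.05 or less, with a median log2 fold change of -0.11. Its most highly expressed genes were Ppt1, a lysosomal thioesterase (51.1 ± 2.27 FPKM in E, 48.7 ± 4.93 in NE), Id2, an inhibitor of E proteins that conventional dendritic cells require (46.9 ± 6.09 and 41.6 ± 6.17), and Naaa, a lysosomal amidase (25.8 ± 4.43 and 30.4 ± 11.0).

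Of the cDC2 list, 13 of 14 genes were tested and 1 had an unadjusted p of 0.05 or less, with a median log2 fold change of -0.00050. That gene was Notch2, the receptor whose signal cDC2 of the spleen and gut need. Notch2 had FPKM of 20.2, 20.8, 21.9, 19.1 and 21.3 in E and 18.8, 17.7, 18.9, 17.1 and 18.7 in NE, so that the groups did not overlap. Its log2 fold change was 0.15 (standard error 0.0524) at an unadjusted p of 0.0167 and an adjusted p of 0.897 in edgeR, and it did not pass the threshold over all genes. Sirpa, an inhibitory receptor of myeloid cells, stood at 51.4 ± 13.0 and 44.97 ± 13.8 FPKM in E and NE, and Rbpj, the nuclear partner of Notch receptors, at 40.3 ± 3.18 and 40.1 ± 4.19.

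Of the pDC list, 13 of 15 genes were tested and 0 had an unadjusted p of 0.05 or less, with a median log2 fold change of -0.0030. The antiviral surface protein Bst2 stood at 287.7 ± 40.5 FPKM in E and 278.8 ± 30.4 in NE. The interferon regulator Irf7 stood at 30.0 ± 8.56 and 21.1 ± 5.46, with a log2 fold change of 0.48 (standard error 0.218) at an unadjusted p of 0.0515 and an adjusted p of 0.897 in edgeR. Pltp, a phospholipid transfer protein, stood at 23.6 ± 8.67 and 19.4 ± 6.51.

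Of the mature dendritic cell list, 17 of 18 genes were tested and 0 had an unadjusted p of 0.05 or less, with a median log2 fold change of 0.039. Cd274, which encodes PD-L1, stood at 23.95 ± 5.45 FPKM in E and 22.7 ± 5.77 in NE. Tnfrsf9, the costimulatory receptor 4-1BB, stood at 21.3 ± 4.43 and 21.3 ± 9.39, and the apoptosis inhibitor Birc3 at 16.1 ± 1.43 and 14.3 ± 2.61. Tnfrsf9 was highest in non-exercise replicate 1 and lowest in non-exercise replicate 4, as Fscn1 was. Another gene of this list shared these extremes, and so did Rbpj of the cDC2 list.

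Of the signals that grow and recruit dendritic cells, 11 of 14 genes were tested, and 1 had an unadjusted p of 0.05 or less in each direction. The ligand of FLT3, Flt3l, stood at 1.56 ± 0.360 FPKM in E and 1.31 ± 0.164 in NE, a log2 fold change of 0.22 (standard error 0.172). Xcl1, the ligand of XCR1, stood at 3.27 ± 1.62 and 3.002 ± 1.69, a log2 fold change of 0.067 (0.50), and was lowest in non-exercise replicate 1. Ccl4, a chemokine, had a log2 fold change of 0.92 (0.411) at an unadjusted p of 0.0474 and an adjusted p of 0.897 in edgeR. Kitl, the KIT ligand, had one of -0.43 (0.183) at an unadjusted p of 0.0403 and the same adjusted p of 0.897 in edgeR. Neither passed the threshold over all genes, and Ccl4 was highest in exercise replicate 5. The T cell-attracting chemokines Cxcl9 and Cxcl10 stood at 83.7 ± 26.1 and 55.4 ± 9.74 FPKM in E and at 112.8 ± 59.2 and 51.3 ± 13.1 in NE.

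Of the 15 transcription factors of dendritic cell development, all were tested and 0 had an unadjusted p of 0.05 or less, with a median log2 fold change of 0.054. Stat3, which relays cytokine signals, stood at 29.4 ± 1.53 FPKM in E and 27.7 ± 0.820 in NE, and Nfil3, a factor of the cDC1 lineage, at 22.2 ± 0.989 and 23.9 ± 2.85.

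**Figure D5:**
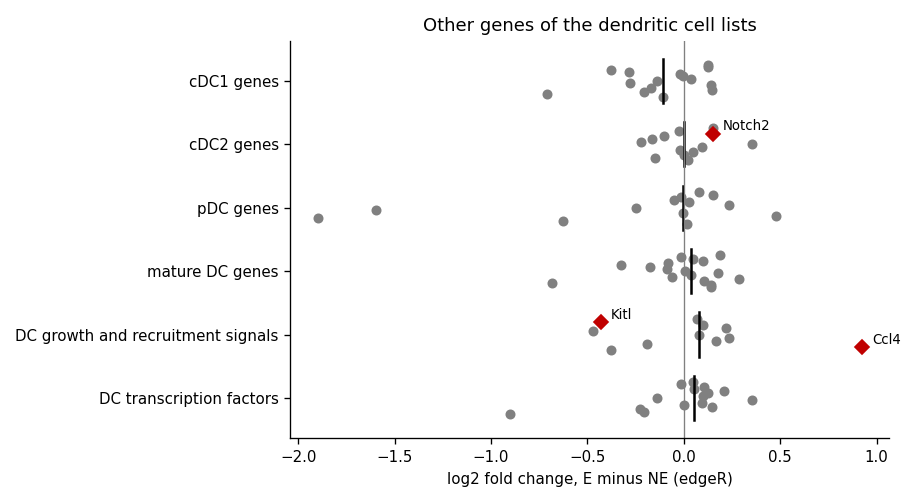
Log2 fold change (E minus NE, edgeR, horizontal axis) of every tested gene of 6 lists of dendritic cell genes, grey points for genes with an unadjusted p above 0.05, red diamonds for the named genes at or below it, and black lines the medians. Notch2, Kitl and Ccl4 are the only red diamonds, and none of them passed the adjustment over all genes.

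Among the lists of other cell types, 0 genes had an unadjusted p of 0.05 or less for macrophages and monocytes (12 tested), B and plasma cells (4 of 8 tested), T and NK cells (8), endothelium (8), fibroblasts (8) and skeletal muscle (12). Of the neutrophil list 3 of 7 tested genes did, S100a8, S100a9 and Mmp9, with positive log2 fold changes and a median of 1.25 over the 7, beside 4.86% of all genes. The neutrophil sum was highest in exercise replicate 5, and without that tumor the median was -0.15. Of the 2 tested epithelial markers Epcam did, with a log2 fold change of -1.01 at an unadjusted p of 0.0252 and an adjusted p of 0.897 in edgeR. None of these genes was called. Exercise replicate 5 also held the highest fibroblast sum, 16123 CPM against 995 to 5118 CPM in NE.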

How the data were processed

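Whole-tumor mRNA libraries of 5 exercise and 5 non-exercise tumors were sequenced as paired ends, and groups and replicate numbers were taken from the sample titles. Hisat2 was the authors' aligner and Stringtie their tool for expression values, per their methods, which name a rat genome as the reference although the table lists mouse genes. A single deposited table gives, for each gene, 10 counts and 10 FPKM. The deposited counts were whole numbers and not normalized. The deposited FPKM equaled the count divided by gene length and total count, without the TMM scaling of the methods. How the counts were made and the table's build are not given in the sources used here.

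Counts were tested with edgeR 4.0.16 in R 4.3.3 (TMM, filterByExpr, glmQLFTest, Benjamini-Hochberg over all 13517 genes that passed, which included all 9), after a test on simulated data. Thresholds (fold change of 2, FDR of 0.05) followed the methods. Single values were tested by exact permutation over 252 assignments, ratios with 0.5 added to each count, and correlations by 100000 permutations. The 9 genes and all lists were chosen with earlier results of these data known. Named were the 9 genes, the 3 most highly expressed tested genes of each list, list genes with an unadjusted p of 0.05 or less, the 3 genes nearest by r to Flt3, Xcr1, Cd209a, Siglech and Fscn1, and the ligands Flt3l and Xcl1. The motifs, and the settings without non-exercise replicates 1 and 4 together or with a macrophage covariate, were chosen after the data were seen. DESeq2 1.42.0 and limma 3.58.1 served as alternatives. Intervals on single counts cover counting error only. Promoters came from the RefSeq table of GRCm38.p6, in which all 9 genes matched. Stretches shared between genes were counted in GENCODE transcripts of GRCm38.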

Additional observations from a re-analysis of the deposited data

How the results depend on the processing

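All 9 genes stayed uncalled under every alternative run, which were other size factors, no TMM, DESeq2, limma-trend on log2(FPKM + 1), other count filters, 3 covariates, a replicate block and leaving out tumors. Over all genes 0 were called under each of these with the fold change threshold, 657 at an unadjusted p of 0.05. The log2 fold change turned sign for Flt3 (-0.15) and Cd209a (-0.60) with the log2 total count as a covariate, and for Irf8 with the macrophage score as a covariate (-0.082) and without non-exercise replicates 1 and 4 (-0.043). Leaving out 1 tumor at a time gave log2 fold changes of -0.0037 to 0.40 for Flt3, -0.67 to 0.0054 for Xcr1, -0.34 to 0.10 for Batf3, -0.12 to 0.11 for Irf8, -0.33 to 0.74 for Cd209a, -1.08 to -0.18 for Siglech, -0.23 to -0.051 for Zbtb46, -0.50 to -0.24 for Clec9a and -0.028 to 0.14 for Fscn1. It gave -0.89 to -0.27 for the log2 ratio of Xcr1 to Cd209a, -0.94 to 0.14 for that of Siglech to Flt3 and -0.51 to 0.16 for that of Fscn1 to Flt3. Pairs of genes with an adjusted p of at most 0.05 numbered 1 on the log2(FPKM + 1) scale, 19 after subtracting group means, 0 without non-exercise replicates 1 and 4, and 0 to 22 leaving out 1 tumor. The cause of these shifts was not tested. With at least 10 counts required in every tumor, Xcr1, Cd209a and Siglech could not be fitted.

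The study speaks of matched tumors, but the sample labels give only replicate numbers, and these were not used as pairs: correlations between tumors of equal number were 0.035, -0.16, -0.095, -0.32 and 0.32 and only replicate 5 correlated best with its own number. With the replicate number as a block, 0 genes were called and 714 had an unadjusted p of 0.05 or less, and the log2 fold changes were 0.32 for Flt3, 0.49 for Cd209a, -0.065 for Xcr1 and -0.18 for Siglech. Depth limits Xcr1 and Siglech most, with 3 reads and 1 read in their lowest tumor.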
